A study of Arabidopsis thaliana with 18 samples.

Results

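The late embryogenesis abundant (LEA) genes of Arabidopsis thaliana were followed in seeds taken dry and seeds taken after 24 h in water. They were chosen as a list of 53 loci holding the LEA proteins of all families, dehydrins and Em proteins included, out of 33602 transcript models with a count, and all 53 were found. Polyadenylated RNA was sequenced from 6 groups of 3 libraries: imbibed mpk8, imbibed tcp14, imbibed wild type, dry mpk8, dry tcp14 and dry wild type. Per the labels, mpk8 and tcp14 are mutants, the design text calls them gene knock outs, all plants grew on soil at 21 °C, and imbibed seeds were dormant and lay in water in the dark at 25 °C, while dry seeds had no treatment. The allele, the ecotype and the number of independent lines are not given in the sources used here. Replicates are called biological without a word on separate plants or seed lots, so p-values measure the spread between these libraries. MPK8 is a mitogen-activated protein kinase and TCP14 a transcription factor of the TCP family, and the series title places the comparison in the release of dormancy.

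LEA proteins accumulate late in seed maturation, when the embryo dries, and disappear again after the seed takes up water. Most are very hydrophilic and without fixed structure in solution, and they are thought to protect membranes and enzymes as water leaves the cell. Dehydrins carry a lysine-rich segment that folds on membranes, Em proteins are the small hydrophilic LEA_5 class, and LEA_2 proteins differ from the rest in having a folded core. Abscisic acid, through the seed factors ABI3 and ABI5, switches on many LEA genes in the seed, and other members answer to cold or drought in leaves through factors that bind the CRT/DRE element.

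Upstream sequence of 5 members is shown because the results below turn on these genes and because their elements differ. Each line holds the 150 bases before the annotated start of transcription, read by locus from the RefSeq genome TAIR10.1 and written on the strand of the gene. Capitals mark ACGTG, the core of the abscisic acid response element (ABRE), and CCGAC, the core of CRT/DRE, on either strand, so that CACGT and GTCGG are capitals too.
RAB18 (chr5:26519448-26519597, reverse strand): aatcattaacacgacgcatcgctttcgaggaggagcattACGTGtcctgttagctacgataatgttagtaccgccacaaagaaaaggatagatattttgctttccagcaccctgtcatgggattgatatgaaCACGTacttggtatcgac
GEA6 (chr2:16780369-16780518, reverse strand): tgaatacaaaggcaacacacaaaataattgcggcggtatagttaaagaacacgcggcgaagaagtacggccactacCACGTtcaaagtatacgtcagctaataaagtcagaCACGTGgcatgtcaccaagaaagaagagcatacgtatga
LTI30 (chr3:18940493-18940642, forward strand): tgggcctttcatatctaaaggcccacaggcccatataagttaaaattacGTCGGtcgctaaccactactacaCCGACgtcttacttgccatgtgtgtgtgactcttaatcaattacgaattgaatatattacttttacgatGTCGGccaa
XERO1 (chr3:18941775-18941924, forward strand): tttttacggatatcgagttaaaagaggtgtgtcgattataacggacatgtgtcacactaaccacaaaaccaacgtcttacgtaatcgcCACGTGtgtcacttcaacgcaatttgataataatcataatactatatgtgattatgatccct
COR47 (chr1:7086874-7087023, reverse strand): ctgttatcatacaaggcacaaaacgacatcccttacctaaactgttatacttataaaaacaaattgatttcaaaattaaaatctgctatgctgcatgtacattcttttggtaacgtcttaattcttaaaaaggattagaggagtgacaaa

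RAB18, GEA6 and XERO1 show ABRE cores, LTI30 shows 3 CRT/DRE cores, and COR47 shows neither in the bases printed. Over 250 bases upstream, ACGTG occurred on either strand in 38 of the 53 LEA genes (71.7%), against 22.9% of 27438 protein-coding genes. It occurred in 32 of the 37 members that were lower in imbibed than in dry wild-type seeds (86.5%), and in 4 of the 7 that were higher (57.1%). AT2G03850 and AT4G38410, among the 7 and both with ACGTG, passed the filter on low counts only through imbibed wild type. COR15A, among the 37 and with ACGTG too, passed only through dry wild-type and tcp14-labelled libraries. The place of these members in the sets was thus set by the filter. CCGAC occurred in 35.8% of the LEA genes and 12% of all genes, and CATGCA, the RY core bound by B3 factors such as ABI3, in 17.0% and 8.43%. TGGGCC, a motif of the kind class I TCP factors bind, occurred in 13.2% of the LEA genes and 13.7% of all genes, and LTI30 and XERO1 both carry it within the 250 bases. These matches describe letters in a window and say nothing of binding.

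Libraries held 12170793 to 21233207 counted read pairs. Levels are given in CPM, read pairs relative to the TMM-scaled library total, and a call is an adjusted p under 0.05 in edgeR's quasi-likelihood test over 18061 genes. MPK8 stood at 4.31 ± 0.397 CPM in imbibed mpk8 and 11.7 ± 0.849 CPM in imbibed wild type (mean ± SD, n = 3 each), and at 4.04 ± 0.502 and 11.4 ± 0.588 CPM in dry mpk8 and dry wild type. TCP14 itself stood higher in libraries labelled tcp14 than in wild type, at 34.5 ± 3.14 against 15.7 ± 1.98 CPM imbibed and 44.1 ± 0.501 against 6.86 ± 1.40 CPM dry, so this line is called tcp14-labelled throughout. The libraries are from bulk seeds, so fewer cells of a type and less RNA per cell cannot be told apart. Among markers of seed tissues, the 8 seed reserve genes were all detected, with sums of 96792 to 98290.0 CPM in imbibed mpk8, 97178 to 140665 in imbibed tcp14-labelled and 38553 to 47018 in imbibed wild type, and of 148691 to 154261, 151449 to 174691 and 158564 to 170137 CPM in the dry groups of the same lines. The 4 endosperm markers summed to 6283 to 7438, 4689 to 6683 and 2612 to 3438 CPM imbibed and 27744 to 34606, 22829 to 27569.7 and 27439 to 30196 CPM dry, with RGE1 at 0 outside mpk8. Of 4 seed coat markers TT12 was at 0 everywhere. Their sum was 5.41 to 6.32 CPM in imbibed mpk8, 5.59 to 6.82 in imbibed tcp14-labelled and 9.82 to 12.2 in imbibed wild type. In the dry groups of the same lines it was 7.63 to 8.79, 7.83 to 9.05 and 7.91 to 9.37 CPM. The 3 green leaf markers summed to 75.3 to 83.1, 136 to 178 and 277 to 325 CPM imbibed, against 12 to 18.8 CPM dry. The 3 pollen markers were at 0 to 0.0757 CPM imbibed, and at 59.7 to 64.1 CPM in dry mpk8, 111 to 156 in dry tcp14-labelled and 102 to 112 in dry wild-type seeds.

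LEA transcripts made up a large share of the counted pairs in dry seeds and a smaller one at 24 h. In imbibed seeds their share of counted pairs was 3.97%, 3.96% and 3.91% in mpk8, 3.52%, 3.43% and 3.92% in tcp14-labelled and 2.37%, 2.8% and 2.45% in wild-type libraries. In dry seeds it was 12.1%, 12.3% and 12.2% in mpk8, 11.6%, 11.1% and 11.2% in tcp14-labelled and 11.4%, 11.5% and 11.6% in wild-type libraries. No imbibed library reached a dry one, and every imbibed library of both lines lay above every imbibed wild-type library. The dehydrin RAB18 alone took 0.321%, 0.404% and 0.335% of the pairs in imbibed wild type, against 3.38%, 3.49% and 3.55% in dry wild type.

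**Figure D1:**
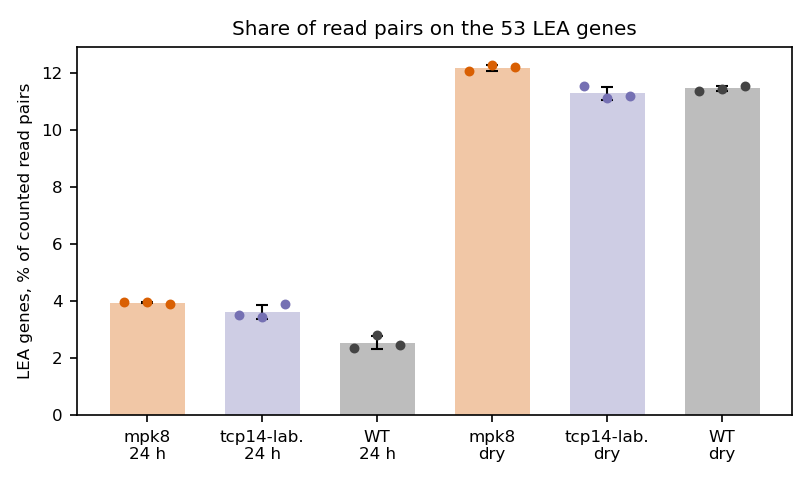
Share of counted read pairs on the 53 LEA genes, in percent (vertical axis), in the 6 groups (horizontal axis). Points are libraries, bars are means and error bars are SD (n = 3): the means are 3.95% ± 0.0286 in imbibed mpk8, 3.62% ± 0.26 in imbibed tcp14-labelled, 2.54% ± 0.228 in imbibed wild type, and 12.2% ± 0.112, 11.3% ± 0.241 and 11.5% ± 0.0883 in the dry groups of the same lines.

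Ranked by CPM per kilobase of model among 33602 models, 16 LEA genes were among the 100 highest in imbibed mpk8, against 25 in dry mpk8. The number was 16 in imbibed and 23 in dry tcp14-labelled seeds, and 11 in imbibed and 25 in dry wild type. RAB18, an abscisic acid responsive dehydrin, ranked 8 in imbibed and 2 in dry wild type. GEA6, also known as EM6 and an Em protein of the ripe embryo, ranked 10 in imbibed and 8 in dry wild type. AT3G15670, of the LEA_4 class whose members turn helical on drying, ranked 31 in imbibed and 10 in dry wild type, and LTI30, a dehydrin known from cold-treated leaves, ranked 7481 and 87. At the low end, 8 members did not pass the filter on low counts: LEA3, AT1G52680, AT2G03740, AT2G33690, COR15B, AT3G53770, AT4G13230 and AT5G27980. Of these AT2G33690, AT3G53770 and AT4G13230 had no pair in any library, and no library held more than 12 pairs of any of the 8. The remaining 45 passed the filter, some only through the groups in which they were high. Among these are AT2G03850, with 24 to 35 pairs per library in imbibed wild type, and AT4G38410, with 10, 10 and 12. Both had at most 8 pairs in any other library, so a higher level in imbibed wild type was set by the filter and their calls are descriptions. COR15A passed only through dry wild-type and tcp14-labelled libraries and held at most 1 pair in any imbibed library. Its imbibition changes and its deficit in dry mpk8 are descriptions too.

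**Figure D2:**
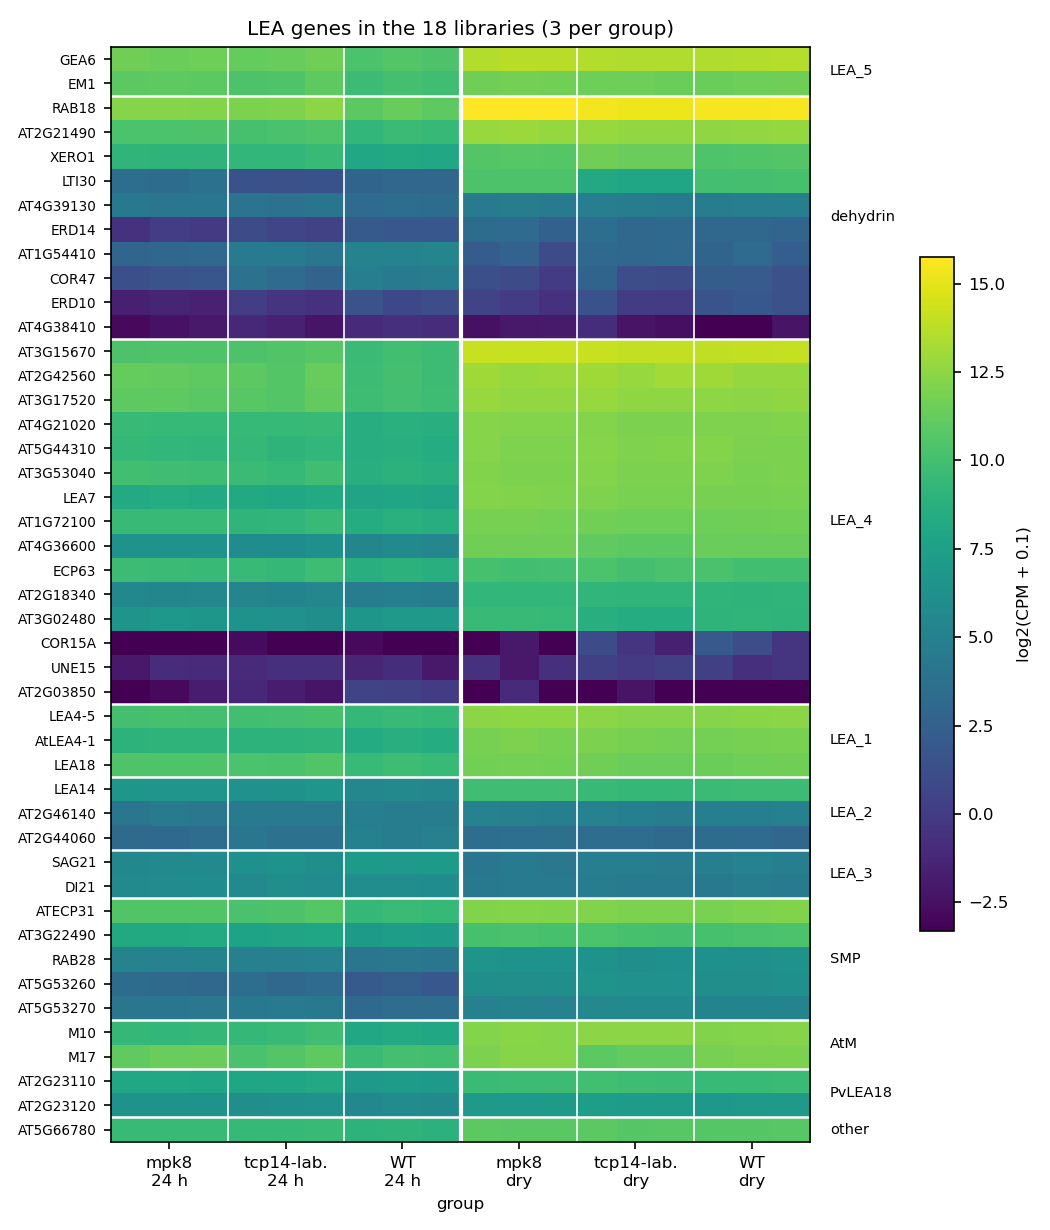
Level of the 45 tested LEA genes, as log2(CPM + 0.1) by colour, in the 18 libraries (horizontal axis, 3 per group, imbibed groups on the left and dry groups on the right), with genes grouped by family on the vertical axis. Most rows are brighter on the dry side, and the rows of SAG21, DI21, AT1G54410 and COR47 are brighter in imbibed wild type than in dry wild type.

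Imbibed against dry seeds of the same line compare LEA transcript levels at 24 h with those stored dry: most were lower, in every line, and a few members were higher. Transcripts kept from the dry seed and transcripts made in water cannot be told apart in these counts. In mpk8 40 of 45 tested members were called (83.1% of all tested genes), 37 lower and 3 higher, against 38.7% of all genes lower and 44.4% higher, with a median log2 change of -1.77 for members and 0.15 for all genes. In tcp14-labelled seeds 43 were called (83.1%), 38 lower and 5 higher, against 39.3% and 43.8%, with medians of -1.98 and 0.11. In wild type 44 were called (86.1%), 37 lower and 7 higher, against 40.1% and 46.0%, with medians of -2.51 and 0.14. The 7 include AT2G03850 and AT4G38410, and both the 37 and the 38 in tcp14-labelled seeds include COR15A. Those calls are descriptions, since these members passed the filter only through groups in which they were high. The same 35 members were called lower in all 3 lines, and AT1G54410, SAG21 and DI21 were called higher in all 3. The other 7 were COR47, ERD10, AT2G03850, COR15A, AT2G44060, UNE15 and AT4G38410. Scaling by library totals instead of TMM moves the median of all genes up by 0.82 in mpk8, 0.73 in tcp14-labelled and 1.09 in wild-type seeds. With library totals 28 members were lower and 8 higher in mpk8, 31 and 8 in tcp14-labelled and 33 and 9 in wild-type seeds. Of all genes 19.7% were then lower and 67.8% higher in mpk8, 21.1% and 65.5% in tcp14-labelled and 18.5% and 72.1% in wild-type seeds. In mpk8 53.4% of all called genes were higher with TMM scaling and 77.5% with library totals, in tcp14-labelled seeds 52.7% and 75.6%, and in wild type 53.4% and 79.6%. The seed reserve, endosperm, seed coat, green leaf and pollen marker sums given above moved with imbibition too, and their part in these changes was not tested.

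**Figure D3:**
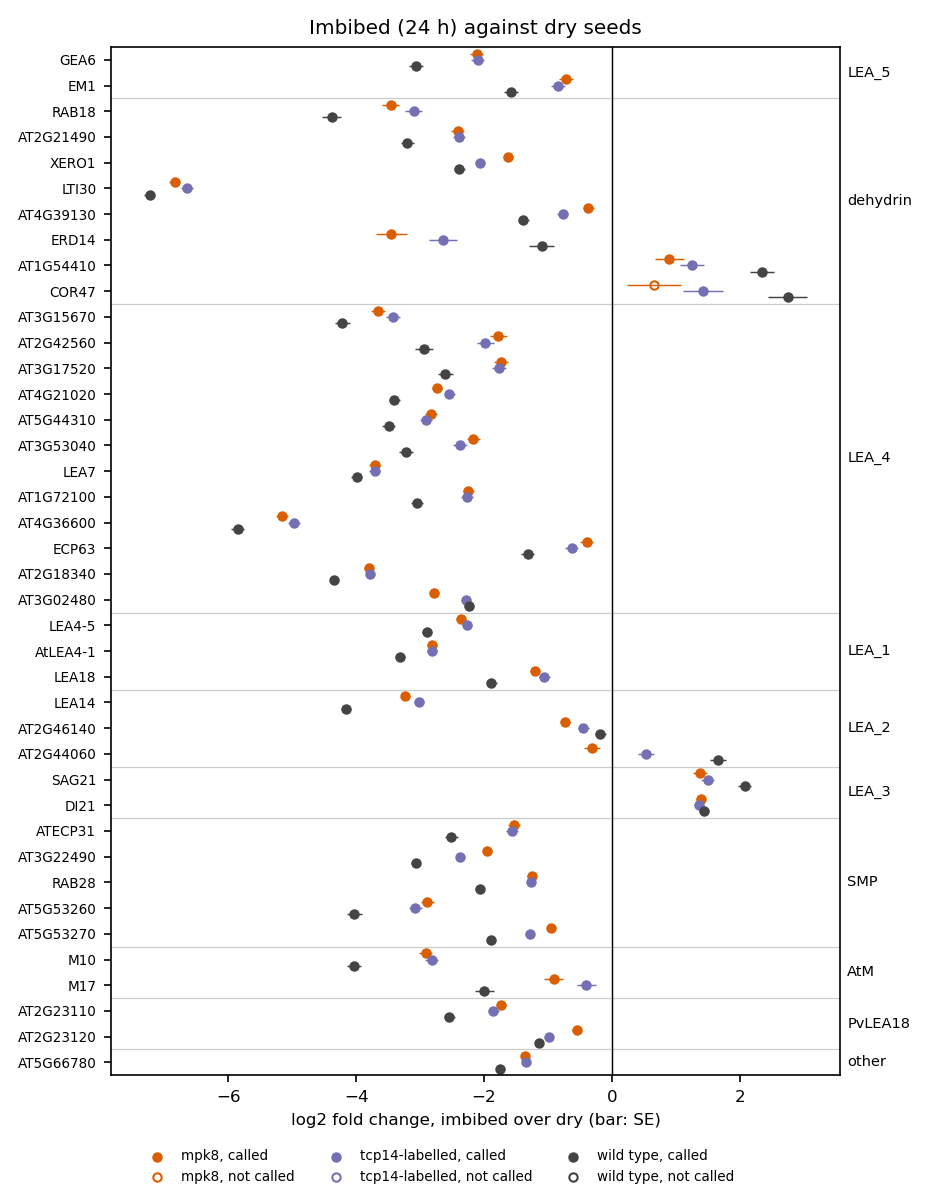
log2 fold change of imbibed over dry seeds (horizontal axis, TMM scaling) for the 40 LEA genes with at least 5 CPM in a group (vertical axis, by family), in mpk8, tcp14-labelled and wild-type seeds. Points are fitted values and bars SE, with filled points for calls: LTI30 lies at -6.84, -6.64 and -7.23, and AT2G44060 at -0.31, 0.54 and 1.66, the mpk8 value of AT2G44060 turning to 0.51 with library totals.

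Both Em genes fell in all 3 lines, except that with library totals EM1 turned in sign in mpk8 (0.11) and was called neither there nor in tcp14-labelled seeds (-0.13). GEA6 had 1317, 1583 and 1358 CPM in imbibed wild type, against 11148, 12046 and 12316 CPM in dry wild type, without overlap. Its log2 change was -2.11 (SE 0.103) in mpk8, -2.10 (SE 0.103) in tcp14-labelled and -3.06 (SE 0.107, adjusted p = 5.15e-18) in wild-type seeds. EM1, the other Em gene, had 878, 1112 and 973 CPM in imbibed wild type, against 2761, 3001 and 3114 CPM in dry wild type, a log2 change of -1.58 (SE 0.109, adjusted p = 2.74e-12). EM1 thus stood at a larger share of its TMM-scaled dry level: at 24 h it was at 61.1% in mpk8, 55.7% in tcp14-labelled and 33.4% in wild-type seeds, and GEA6 at 23.1%, 23.4% and 12%.

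Of the 10 dehydrins, all tested, 7 fell and 1 rose in mpk8, 7 fell and 2 rose in tcp14-labelled seeds, and 6 fell and 3 rose in wild type. The 3 include AT4G38410, which passed the filter only through imbibed wild type. RAB18 had 4975, 4892 and 4788 CPM in imbibed mpk8, against 52505, 54839.5 and 54163 CPM in dry mpk8. In tcp14-labelled seeds RAB18 had 4076, 4351 and 5640.0 CPM imbibed, against 43461, 38728 and 38511 CPM dry, and in wild type 2008, 2598 and 2112 CPM imbibed, against 44625, 46702 and 48818 CPM dry. No imbibed library came near a dry one, and the log2 change was -3.46 (SE 0.14) in mpk8, -3.10 (SE 0.138) in tcp14-labelled and -4.38 (SE 0.146) in wild-type seeds. LTI30 had 7.0, 7.6 and 7.57 CPM in imbibed wild type, against 1080.4, 1089 and 1162 CPM in dry wild type, a log2 change of -7.23 (SE 0.086, adjusted p = 1.37e-25). At 24 h LTI30 stood at a small share of its dry level in every line: 0.875% in mpk8, 0.998% in tcp14-labelled and 0.666% in wild-type seeds. AT2G21490, another dehydrin, changed by -3.20 (SE 0.101) in wild type, and XERO1, a dehydrin next to LTI30 on chromosome 3, by -2.38 (SE 0.0799). AT4G39130 changed by -0.37 (SE 0.0861) in mpk8, -0.77 (SE 0.0876) in tcp14-labelled and -1.38 (SE 0.091) in wild-type seeds, but library totals turn the mpk8 value to 0.45 and give -0.04 with no call in tcp14-labelled seeds.

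COR47, ERD10 and ERD14 are acidic dehydrins best known from cold and drought in leaves, and AT1G54410 is a short dehydrin of the KS type. COR47 had 2.46, 2.88 and 3.32 CPM in imbibed mpk8, against 2.44, 2.04 and 0.895 CPM in dry mpk8, and the log2 change of 0.67 (SE 0.423, adjusted p = 0.147) was not called, though library totals give 1.49 and a call. In tcp14-labelled seeds it had 14.3, 10.01 and 6.69 CPM imbibed, against 6.8, 2.12 and 2.08 CPM dry, and the groups overlapped, with a log2 change of 1.43 (SE 0.31, adjusted p = 0.000197). In wild type it had 27.7, 24.1 and 27.3 CPM imbibed, against 4.9, 4.25 and 2.5 CPM dry, a log2 change of 2.75 (SE 0.302, adjusted p = 1.17e-08) without overlap. COR47 was highest in the imbibed wild-type libraries and lowest in dry mpk8. AT1G54410 rose in all 3 lines, with log2 changes of 0.90 (SE 0.23) in mpk8, 1.26 (SE 0.188) in tcp14-labelled and 2.35 (SE 0.194) in wild-type seeds. ERD14 fell in all 3, with log2 changes of -3.45 (SE 0.241) in mpk8, -2.64 (SE 0.218) in tcp14-labelled and -1.10 (SE 0.198) in wild-type seeds, the wild-type one being -0.01 and not called with library totals. ERD10, at most 3.66 CPM in any library, was called lower in mpk8 (-1.90, SE 0.509) and in tcp14-labelled seeds (-1.08, SE 0.381), where its groups overlapped. The tcp14-labelled call was lost without dry library 1 (-0.35, adjusted p = 0.438), and library totals gave no call in mpk8 (-1.09) or tcp14-labelled seeds (-0.34). In wild type ERD10 was not called, at -0.40 (SE 0.295, adjusted p = 0.208), but library totals turn it to 0.69 with a call. AT4G38410 stayed under 1 CPM in every library, with 10, 10 and 12 pairs in imbibed wild type, against 0, 0 and 1 in dry wild type.

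The LEA_4 class, the largest with 18 loci, supplied 15 tested members. In mpk8 12 of them fell and 0 rose, in tcp14-labelled seeds 14 fell and 0 rose, and in wild type 14 fell and 1 rose. Both counts of 14 include COR15A, whose calls are descriptions. AT3G15670 had 798, 989.8 and 875 CPM in imbibed wild type, against 15852, 16578 and 17084 CPM in dry wild type, a log2 change of -4.22 (SE 0.113, adjusted p = 3.77e-20). AT4G36600 had 43.4, 54.4 and 44.3 CPM in imbibed wild type, against 2711, 2745 and 2745 CPM in dry wild type, a log2 change of -5.86 (SE 0.0953, adjusted p = 9.89e-24). AT2G18340 changed by -4.34 (SE 0.0718), LEA7 by -3.99 (SE 0.0845), AT5G44310 by -3.49 (SE 0.0981), AT4G21020 by -3.40 (SE 0.0868), AT2G42560 by -2.94 (SE 0.141) and AT3G17520 by -2.60 (SE 0.112) in wild type. The same 8 fell in both other lines, and in each line their imbibed libraries lay below their dry ones. How many of all genes separate in this way was not counted. ECP63, named for embryogenic cells, had 865, 837 and 772 CPM in imbibed mpk8, against 1197, 1014 and 1042 CPM in dry mpk8, a log2 change of -0.39 (SE 0.101, adjusted p = 0.00104). Library totals turn that to 0.43, and the tcp14-labelled value of -0.62 to 0.09. AT2G03850, which passed the filter only through imbibed wild type, was the LEA_4 gene called higher there, with 35, 24 and 25 pairs in imbibed and 0, 0 and 0 in dry wild-type libraries, at least 12.5-fold higher when the dry group is set to a floor of 3 pairs in all. COR15A, a chloroplast protein that shields membranes on freezing, had 1, 0 and 0 pairs in imbibed and 41, 26 and 6 in dry wild-type libraries and was called lower. UNE15, under 2 CPM throughout, was called lower in tcp14-labelled seeds (-1.14, SE 0.408) and in wild type (-1.33, SE 0.485), but in neither with library totals (-0.41 and -0.26). Its wild-type call was also lost without dry library 1 (-0.91, adjusted p = 0.148) or imbibed library 3 (-0.96, adjusted p = 0.0782).

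The 3 LEA_1 genes fell in every line. LEA4-5, a group 4 LEA protein tied to tolerance of water loss, had 681, 775 and 648 CPM in imbibed wild type, against 4947, 5170.4 and 5474 CPM in dry wild type, a log2 change of -2.89 (SE 0.0827, adjusted p = 1.13e-19). AtLEA4-1 changed by -3.31 (SE 0.0822) and LEA18 by -1.88 (SE 0.083) in wild type, and at 24 h LEA18 was at 43.5% of its dry level in mpk8, 48.2% in tcp14-labelled and 27.1% in wild-type seeds. The seed maturation protein (SMP) class likewise fell in all 5 tested members and all 3 lines, with wild-type log2 changes between -4.03 for AT5G53260 and -1.89 for AT5G53270. ATECP31, the Arabidopsis counterpart of a carrot embryo protein, had 657, 832 and 708 CPM in imbibed wild type, against 3923, 4211 and 4377 CPM in dry wild type, a log2 change of -2.51 (SE 0.0967, adjusted p = 3.36e-17). AT3G22490 changed by -3.07 (SE 0.0706), and RAB28, the counterpart of a maize abscisic acid responsive gene, by -2.07 (SE 0.0736) in wild type. AT5G53270 is the SMP gene whose call in mpk8 (-0.95, SE 0.0732) was lost with library totals (-0.12).

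M10 and M17 are maturation transcripts of the AtM class. M10 had 279, 322 and 271 CPM in imbibed wild type, against 4570.1, 4782 and 4938 CPM in dry wild type, a log2 change of -4.04 (SE 0.11, adjusted p = 5.02e-20). M17 had 1216, 1629 and 2117 CPM in imbibed tcp14-labelled seeds, against 1939, 2249 and 2346 CPM in dry ones, and these groups overlapped. Its log2 change was -0.91 (SE 0.147) in mpk8, -0.40 (SE 0.146, adjusted p = 0.0157) in tcp14-labelled and -2.00 (SE 0.151) in wild-type seeds. The tcp14-labelled call was lost without dry library 3 (-0.34, adjusted p = 0.0636) or imbibed library 1 (-0.22, adjusted p = 0.132), library totals turn it to 0.31, and they end the mpk8 call (-0.09). Of the PvLEA18 class AT2G23110 changed by -2.54 (SE 0.0823) and AT2G23120 by -1.13 (SE 0.0668) in wild type. With library totals the wild-type call of AT2G23120 was lost (-0.05) and its mpk8 change of -0.55 turned to 0.27. AT5G66780, of no class, changed by -1.74 (SE 0.067) in wild type.

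Both tested LEA_3 genes rose in every line. SAG21, a mitochondrial protein named for senescence and induced by oxidative stress, had 135, 120.4 and 133 CPM in imbibed wild type, against 28.1, 34.9 and 28.5 CPM in dry wild type, without overlap. Its log2 change was 1.38 (SE 0.107) in mpk8, 1.5 (SE 0.102) in tcp14-labelled and 2.08 (SE 0.102, adjusted p = 3.73e-15) in wild-type seeds. DI21, named for induction by drought, had 63.4, 65.9 and 60.8 CPM in imbibed wild type, against 21.2, 26 and 22.6 CPM in dry wild type, again without overlap. The change of DI21 was 1.40 (SE 0.0791) in mpk8, 1.36 (SE 0.0789) in tcp14-labelled and 1.44 (SE 0.0805, adjusted p = 4.58e-14) in wild-type seeds. LEA14, the best known LEA_2 protein, fell in all lines, with 46.1, 48.9 and 46.2 CPM in imbibed wild type, against 818, 845 and 867 CPM in dry wild type, a log2 change of -4.16 (SE 0.0809, adjusted p = 1.2e-22).

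AT2G44060, another LEA_2 gene, moved in opposite directions. It had 9.42, 9.11 and 11.4 CPM in imbibed mpk8, against 11.6, 12.2 and 13.3 CPM in dry mpk8. In tcp14-labelled seeds it had 17.8, 13.4 and 14.3 CPM imbibed, against 11, 10.9 and 9.56 CPM dry, and in wild type 32.8, 26.7 and 31.9 CPM imbibed, against 10.7, 10.3 and 7.81 CPM dry. Imbibed libraries lay below dry ones in mpk8 and above them in the other lines. The log2 change was -0.31 (SE 0.127, adjusted p = 0.0266) in mpk8, 0.54 (SE 0.126, adjusted p = 0.000474) in tcp14-labelled and 1.66 (SE 0.125, adjusted p = 1.43e-11) in wild-type seeds. The mpk8 call was lost without dry library 3 (-0.26, adjusted p = 0.108), imbibed library 1 (-0.27, adjusted p = 0.0827) or imbibed library 2 (-0.25, adjusted p = 0.1), and turned to 0.51 with library totals. AT2G46140, the last LEA_2 gene, changed little in wild type, by -0.18 (SE 0.0815, adjusted p = 0.0472), and library totals turn this to 0.91. Its call was lost without dry library 1 (-0.20, adjusted p = 0.059) or 3 (-0.14, adjusted p = 0.162) or imbibed library 2 (-0.18, adjusted p = 0.0704) or 3 (-0.14, adjusted p = 0.15).

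The imbibition change of most members was smaller in the lines than in wild type. Among 29 members with at least 100 CPM in dry seeds, a level set after the values were seen, the median share of the dry level present at 24 h, in TMM-scaled CPM, was 21.1% in mpk8, 20.6% in tcp14-labelled and 12% in wild-type seeds. It ranged over members between 0.875% (LTI30) and 76.1% (ECP63) in mpk8, 0.998% (LTI30) and 75.9% (M17) in tcp14-labelled, and 0.666% (LTI30) and 45.6% (AT2G23120) in wild-type seeds. These shares depend on the scaling: per library total the medians were 37.4% in mpk8, 34.3% in tcp14-labelled and 25.5% in wild-type seeds, with the highest member at 135% (ECP63), 124% (M17) and 96.9% (AT2G23120). AT3G02480 stood at a smaller share in mpk8, 14.5%, than in tcp14-labelled or wild-type seeds, 20.6% and 21.3%, and with library totals at 25.7%, against 34.3% and 45.2%. The difference itself was tested as an interaction, the log2 imbibition change of the line minus that of wild type. For mpk8 42 of 45 members were called (39.0% of all genes), 32 with a positive and 10 with a negative interaction, against 24.0% and 15.0% of all genes, and the median was 0.69, against 0.07 over all genes. For tcp14-labelled seeds 37 were called (33.2%), 31 positive and 6 negative, against 19.2% and 13.9%, and the median was 0.63, against -0.02. The 10 negative in mpk8 include AT2G03850 and AT4G38410, and the 6 in tcp14-labelled seeds include AT4G38410. Those calls are descriptions, since both genes passed the filter only through imbibed wild type. Both interactions share the wild-type libraries. With library totals, which shift the median of all genes by -0.27 and -0.36, the positive and negative counts were 29 and 10 for mpk8 and 23 and 10 for tcp14-labelled seeds. Of all genes 9.08% and 25.3% were then called positive and negative for mpk8, and 4.91% and 36.0% for tcp14-labelled seeds. Over all called genes the positive share was 61.5% with TMM and 26.4% with library totals for mpk8, and 58% and 12% for tcp14-labelled seeds.

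Positive interactions were those of transcripts whose level fell less in the lines. AT2G42560 had an interaction of 1.17 (SE 0.186, adjusted p = 3.24e-05) in mpk8 and 0.97 (SE 0.186, adjusted p = 0.00032) in tcp14-labelled seeds, M10 of 1.13 (SE 0.139) and 1.22 (SE 0.139), and RAB18 of 0.92 (SE 0.18) and 1.28 (SE 0.18). The SMP genes AT3G22490 and AT5G53260 had 1.12 (SE 0.0929) and 1.14 (SE 0.166) in mpk8 and 0.69 (SE 0.0929) and 0.96 (SE 0.167) in tcp14-labelled seeds. M17 had 1.09 (SE 0.207) in mpk8 and 1.60 (SE 0.208) in tcp14-labelled seeds, and LEA14 0.94 (SE 0.102) and 1.15 (SE 0.103). Negative interactions came from genes that rose less, or fell more, in the lines. ERD14 had -2.35 (SE 0.322, adjusted p = 5.48e-06) in mpk8 and -1.54 (SE 0.299, adjusted p = 0.000338) in tcp14-labelled seeds, and AT2G44060 -1.98 (SE 0.18, adjusted p = 3.5e-08) and -1.13 (SE 0.18, adjusted p = 4.39e-05). AT1G54410 had -1.45 (SE 0.313) and -1.09 (SE 0.277), and SAG21 -0.70 (SE 0.149) and -0.58 (SE 0.144). COR47 had -2.08 (SE 0.559, adjusted p = 0.0048) in mpk8 and -1.32 (SE 0.455, adjusted p = 0.0283) in tcp14-labelled seeds. Its tcp14-labelled call was lost without dry wild-type library 3 (-1.09, adjusted p = 0.088), dry tcp14-labelled library 1 (-0.43, adjusted p = 0.516) or imbibed tcp14-labelled library 3 (-1.10, adjusted p = 0.0531), and in DESeq2 (-1.28, adjusted p = 0.12). Also called negative in mpk8 were AT2G46140 (-0.55, SE 0.115), AT3G02480 (-0.55, SE 0.106), ERD10 (-1.5, SE 0.587), AT2G03850 and AT4G38410, and AT4G38410 in tcp14-labelled seeds too. AT2G03850 lost its call without dry mpk8 library 2 (adjusted p = 1), the single dry mpk8 library with a pair. ERD10 lost its call without imbibed wild-type library 1 or 3 or dry wild-type library 1 or 3 or imbibed mpk8 library 1, 2 or 3 or dry mpk8 library 1 or 2 (adjusted p = 0.062 to 0.195). AT4G38410 lost it in mpk8 without dry wild-type library 1 or 2 or dry mpk8 library 2 or 3 (adjusted p = 0.0566 to 0.0633) and in tcp14-labelled seeds without dry wild-type library 1 or 2 or imbibed tcp14-labelled library 3 or dry tcp14-labelled library 1 (adjusted p = 0.0575 to 0.342). DI21 showed no called interaction with TMM, at -0.04 (SE 0.114, adjusted p = 0.815) in mpk8 and -0.08 (SE 0.113, adjusted p = 0.638) in tcp14-labelled seeds. With library totals DI21 (-0.44), AT2G46140 (-0.63), AT3G02480 (-0.40) and AT2G23120 (-0.21) gained a negative call in tcp14-labelled seeds.

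**Figure D4:**
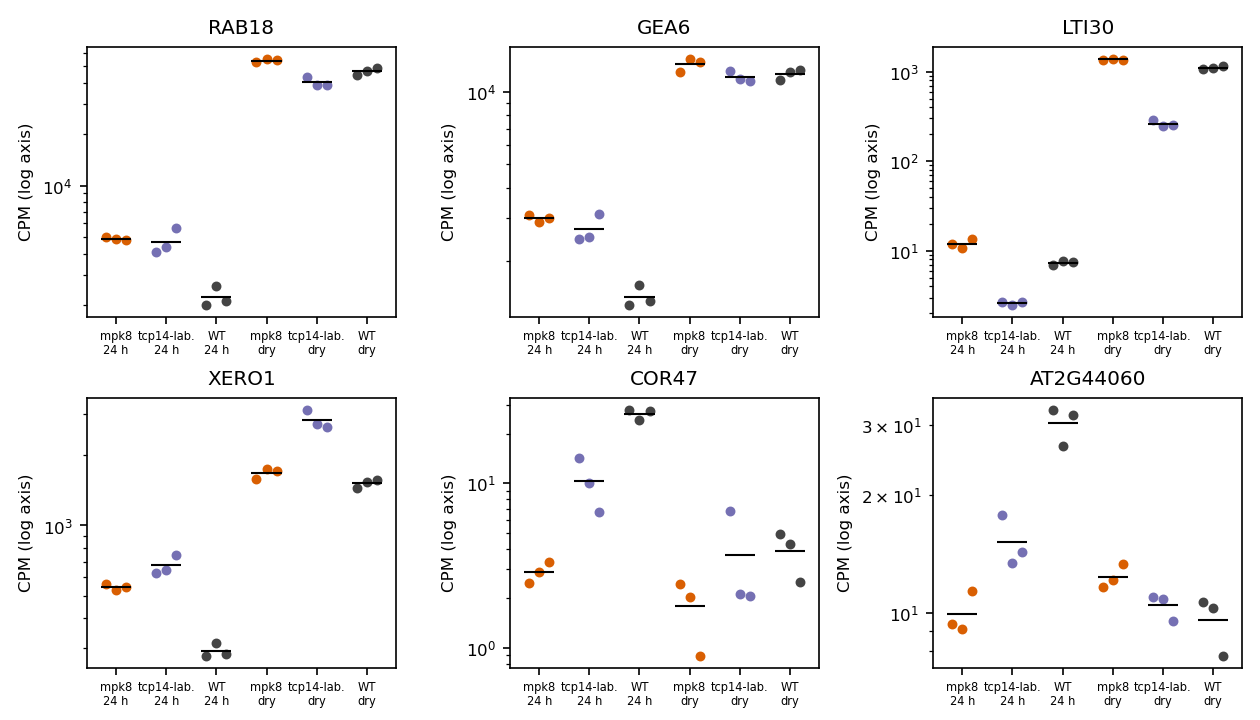
CPM (vertical axes, log scale, each with its own range) of RAB18, GEA6, LTI30, XERO1, COR47 and AT2G44060 in the 6 groups (horizontal axes), points for libraries and lines for means (n = 3). RAB18 and GEA6 are higher in both imbibed lines than in imbibed wild type, LTI30 is lowest in the tcp14-labelled groups of each state, and COR47 and AT2G44060 are highest in imbibed wild type.

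After 24 h in water most LEA transcripts that fall on imbibition were higher in both lines than in wild type, while COR47, AT1G54410, AT2G44060 and SAG21, which rose in wild type, were lower in both. Of 45 members 41 were called in mpk8 (64.6% of all genes), 32 higher and 9 lower, against 33.8% and 30.8% of all genes, with a median log2 difference of 0.80 for members and 0.04 for all genes. In tcp14-labelled seeds 41 were called (55.2%), 31 higher and 10 lower, against 27.3% and 28.0%, with medians of 0.66 and 0. The lower members include AT2G03850 in both lines and AT4G38410 in mpk8. Those calls are descriptions, since both genes passed the filter only through imbibed wild type. Both comparisons share the wild-type libraries, so their values are given side by side only. Library totals, which shift the median of all genes by -0.33 in both, left 32 higher and 11 lower in mpk8 and 28 and 12 in tcp14-labelled seeds. Of all genes 12.3% were then higher and 49.9% lower in mpk8, and 7.83% and 54.2% in tcp14-labelled seeds. Among called genes 52.3% were higher with TMM and 19.8% with library totals in mpk8, and 49.4% and 12.6% in tcp14-labelled seeds. The seed reserve and endosperm marker sums were higher, and the seed coat and green leaf sums lower, in both imbibed lines than in imbibed wild type, as given above. Their part in these differences was not tested.

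GEA6 had 3078, 2888 and 3016 CPM in imbibed mpk8 and 2453, 2509 and 3121 in imbibed tcp14-labelled seeds, against 1317, 1583 and 1358 CPM in imbibed wild type. Neither line overlapped wild type, and the log2 differences were 1.08 (SE 0.10, adjusted p = 3.41e-09) and 0.92 (SE 0.10, adjusted p = 8e-08). EM1 differed by 1.04 (SE 0.108) and 0.72 (SE 0.107). Among dehydrins RAB18 differed by 1.13 (SE 0.129, adjusted p = 7.95e-08) in mpk8 and 1.07 (SE 0.129, adjusted p = 3.76e-07) in tcp14-labelled seeds, AT2G21490 by 0.91 (SE 0.0937) and 0.87 (SE 0.0937), and XERO1 by 0.91 (SE 0.0769) and 1.22 (SE 0.0773). LTI30 differed in direction between the lines. It had 11.8, 10.6 and 13.5 CPM in imbibed mpk8 and 2.68, 2.5 and 2.65 in imbibed tcp14-labelled seeds, against 7.0, 7.6 and 7.57 CPM in imbibed wild type. It was higher in mpk8, at 0.69 (SE 0.0921, adjusted p = 7.14e-07), and lower in tcp14-labelled seeds, at -1.49 (SE 0.123, adjusted p = 1.39e-09), with no overlap on either side.

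The 4 members with the largest increases in mpk8 were M17 at 1.34 (SE 0.148, adjusted p = 4.88e-08), AT2G42560 at 1.23 (SE 0.133, adjusted p = 3.37e-08), M10 at 1.18 (SE 0.0996, adjusted p = 7.55e-10) and AT5G53260 at 1.14 (SE 0.136, adjusted p = 1.5e-07). In tcp14-labelled seeds the largest were M10 at 1.43 (SE 0.10, adjusted p = 1.37e-10), AT5G53260 at 1.23 (SE 0.137, adjusted p = 1.16e-07), XERO1 and AT2G42560 at 1.11 (SE 0.133, adjusted p = 3.45e-07). M10 had 665, 639.7 and 669 CPM in imbibed mpk8 and 662, 732 and 953 in imbibed tcp14-labelled seeds, against 279, 322 and 271 CPM in imbibed wild type. All imbibed libraries of both lines were above those of wild type for M10. The LEA_1 genes were higher by smaller amounts, AtLEA4-1 by 0.57 (SE 0.076) and 0.54 (SE 0.076), LEA18 by 0.84 (SE 0.0809) and 0.75 (SE 0.0808) and LEA4-5 by 0.68 (SE 0.0776) and 0.63 (SE 0.0776). LEA7, at 0.36, AT4G36600, at 0.47, and AT4G39130, at 0.52, were called higher in tcp14-labelled seeds, but not with library totals (0.03, 0.13 and 0.19).

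Lower in both imbibed lines were COR47, ERD10, ERD14, AT1G54410, AT2G44060, AT2G46140, SAG21 and AT2G03850. Among those of at least 5 CPM COR47 had the largest deficit in mpk8, with 2.46, 2.88 and 3.32 CPM in imbibed mpk8 and 14.3, 10.01 and 6.69 in imbibed tcp14-labelled seeds, against 27.7, 24.1 and 27.3 CPM in imbibed wild type. The log2 differences were -3.20 (SE 0.277, adjusted p = 1.11e-09) and -1.34 (SE 0.239, adjusted p = 5.68e-05). AT1G54410 had 7.3, 8.25 and 9.05 CPM in imbibed mpk8 and 24, 22.5 and 17.4 in imbibed tcp14-labelled seeds, against 36.4, 36.3 and 40.5 CPM in imbibed wild type, or -2.21 (SE 0.171) and -0.82 (SE 0.158). In both genes mpk8 was lowest, tcp14-labelled seeds lay between and wild type was highest, without overlap. SAG21 had 47.7, 53.3 and 56.6 CPM in imbibed mpk8 and 76.8, 88.5 and 72.6 in imbibed tcp14-labelled seeds, against 135, 120.4 and 133 CPM in imbibed wild type, and differed by -1.30 (SE 0.0922) and -0.71 (SE 0.0906). AT2G44060 differed by -1.62 (SE 0.113) and -1.01 (SE 0.109), ERD14 by -2.22 (SE 0.254) and -1.28 (SE 0.231), and ERD10 by -3.13 (SE 0.396) and -1.58 (SE 0.331). AT2G03850, whose level in imbibed wild type brought it through the filter, had 0, 1 and 4 pairs in imbibed mpk8 and 8, 4 and 2 in imbibed tcp14-labelled libraries, against 35, 24 and 25 in imbibed wild type. AT4G38410, which passed the filter only through imbibed wild type, had 1, 2 and 3 pairs in imbibed mpk8, against 10, 10 and 12 there. It was called lower in mpk8, and AT3G02480 was called lower in tcp14-labelled seeds (-0.59, SE 0.0773). AT3G02480 was not called in mpk8 with TMM (-0.16, SE 0.0761), but it was called lower there in DESeq2, with DESeq2 size factors and with library totals (-0.50), and library totals also give a call for AT4G38410 in tcp14-labelled seeds (-1.21). DI21 was not called in either line, at -0.09 (SE 0.070, adjusted p = 0.264) and -0.07 (SE 0.0703, adjusted p = 0.445), but with library totals it was lower in both (-0.42 and -0.40).

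**Figure D5:**
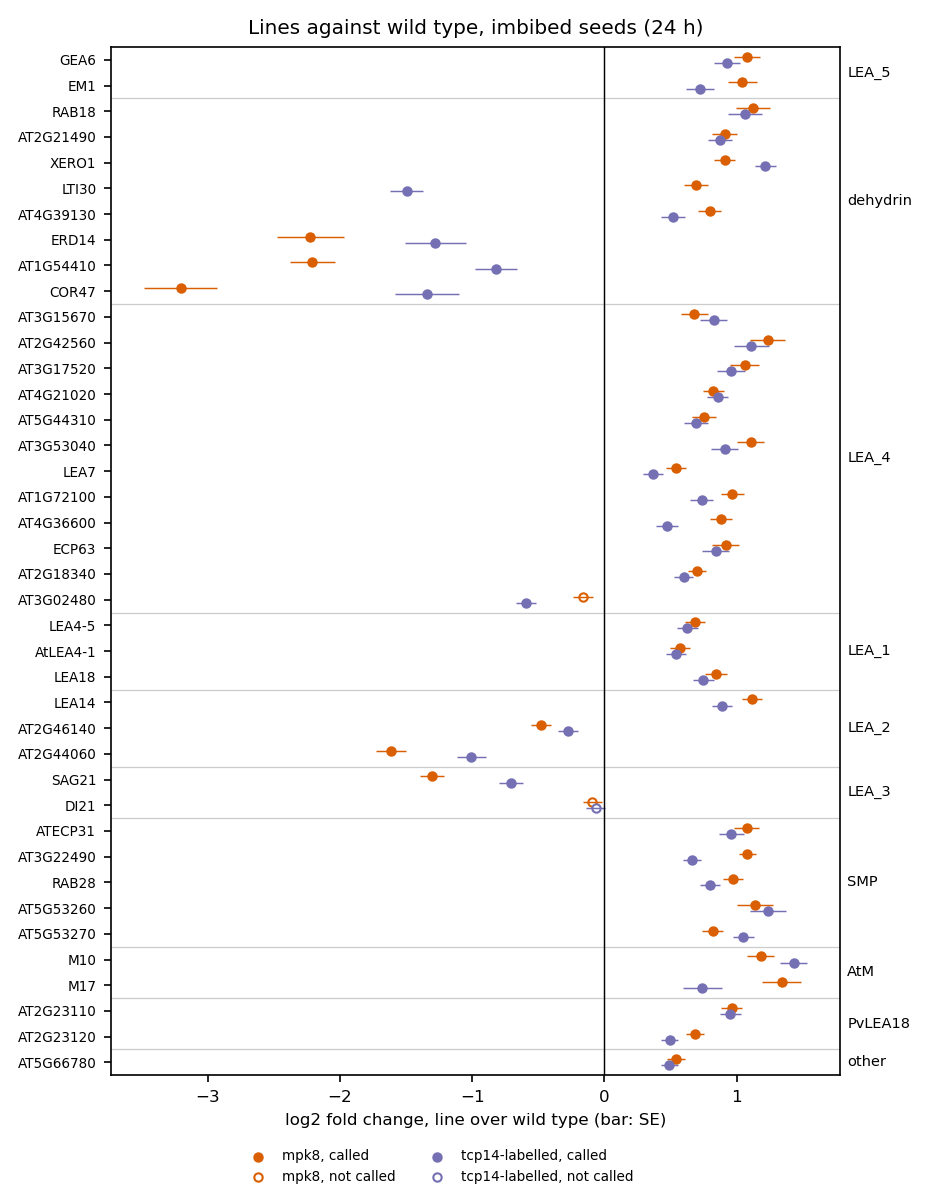
log2 fold change of each line over wild type in imbibed seeds (horizontal axis, TMM scaling) for the 40 LEA genes with at least 5 CPM in a group (vertical axis, by family); points are fitted values, bars SE, filled points calls. Most members lie right of 0 in both lines, COR47 lies at -3.20 and -1.34, and LTI30 at 0.69 in mpk8 and -1.49 in tcp14-labelled seeds.

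In dry seeds, before any water uptake, few LEA genes differed between mpk8 and wild type. Of 45 members 5 were called in mpk8 (2.62% of all genes), 2 higher and 3 lower, against 1.53% and 1.09% of all genes, with a median log2 difference of 0.13, against 0.01 over all genes. The 3 include COR15A, whose call is a description. Marker sums differed between the same groups without overlap, pollen at 59.7 to 64.1 CPM in dry mpk8, against 102 to 112 CPM in dry wild type, and seed reserve at 148691 to 154261 CPM, against 158564 to 170137 CPM, and their part in these differences was not tested. AT3G02480, a small LEA_4 protein, had 731, 749 and 699 CPM in dry mpk8, against 541, 583 and 544 CPM in dry wild type, a log2 difference of 0.39 (SE 0.0736, adjusted p = 0.00627) without overlap. LTI30 had 1366, 1375 and 1361 CPM in dry mpk8, against 1080.4, 1089 and 1162 CPM in dry wild type, or 0.30 (SE 0.0608, adjusted p = 0.00988). The LTI30 call was lost without wild-type library 1 (0.28, adjusted p = 0.0664) or 2 (0.29, adjusted p = 0.0565). SAG21 was lower at -0.60 (SE 0.117, adjusted p = 0.0074), a call lost without wild-type library 2 (-0.49, adjusted p = 0.0668) or mpk8 library 3 (-0.54, adjusted p = 0.056). COR15A had 0, 2 and 0 pairs in dry mpk8, against 41, 26 and 6 pairs in dry wild type, its call being lost without wild-type library 1 (adjusted p = 0.0512). ERD10 was lower at -1.63 (SE 0.372, adjusted p = 0.021), a call lost without wild-type library 1 (-1.68, adjusted p = 0.0663) or 2 (-1.45, adjusted p = 0.107) or mpk8 library 2 (-1.58, adjusted p = 0.0842) or 3 (-1.37, adjusted p = 0.112). COR47 (-1.12) and AT1G54410 (-0.76) were lower too but not called. With no low-count filter both were called (-1.10, adjusted p = 0.000274, and -0.74, adjusted p = 0.000326), as were LEA7 and M17, both higher (0.27 each). AT1G54410 was also called without mpk8 library 2 (-1.14, adjusted p = 0.0469). RAB18, GEA6 and AT3G15670, among the most abundant members, were not called, RAB18 at 0.20 (SE 0.127, adjusted p = 0.443), GEA6 at 0.13 (SE 0.0989, adjusted p = 0.556) and AT3G15670 at 0.12 (SE 0.0994, adjusted p = 0.601). With library totals 2 members were higher and 3 lower (0.354% and 1.42% of all genes). Without wild-type library 1 or 2 the count of calls was 2 and without mpk8 library 3 it was 3. Of all called genes 58.6% were higher with TMM and 19.9% with library totals.

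Dry tcp14-labelled seeds differed from dry wild type in 9 members (11.4% of all genes), 4 higher and 5 lower, against 6.12% and 5.27% of all genes, with a median of 0.03, against 0.02. This comparison and that of dry mpk8 share the dry wild-type libraries. With library totals 6 members were higher and 5 lower (6.68% and 3.97% of all genes), and of all called genes 53.7% were higher with TMM and 62.7% with library totals. LTI30 had 286, 244 and 255 CPM in dry tcp14-labelled seeds, against 1080.4, 1089 and 1162 CPM in dry wild type, a log2 difference of -2.08 (SE 0.0639, adjusted p = 6.44e-17). XERO1 had 3112, 2716 and 2646 CPM in dry tcp14-labelled seeds, against 1445, 1527 and 1573 CPM in dry wild type, a log2 difference of 0.90 (SE 0.0762, adjusted p = 8.23e-09). For both genes the groups stood apart, in opposite directions, and both genes kept these directions at 24 h. LTI30 and XERO1 are neighbours on chromosome 3, on the same strand and 313 bases apart in TAIR10.1. Of the 100 tested genes nearest to LTI30, 50 on each side, 8 were called at 2-fold or more in this comparison, and of those nearest to XERO1 9, against 2.10% of all tested genes. Both sets hold nearly the same genes, and the 9 include LTI30 itself. Near the other tested members the number was 0 to 7. It was 7 near AT3G53040 (log2 difference 0.07), 6 near COR47 (-0.02) and ERD10 (-0.91) and 5 near EM1 (-0.02), members not called here. The part of the surrounding stretch of chromosome in the differences of both genes was not tested.

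M17 had 1939, 2249 and 2346 CPM in dry tcp14-labelled seeds, against 3688, 4126 and 4042 CPM in dry wild type, or -0.86 (SE 0.147, adjusted p = 0.000255), without overlap. M10, its class mate, was not called at 0.21 (SE 0.0973, adjusted p = 0.182), though library totals give 0.24 and a call. AT3G02480 was lower at -0.55 (SE 0.0742, adjusted p = 1.26e-05) and AT4G36600 at -0.41 (SE 0.0761, adjusted p = 0.000585). Higher were AT5G53270 at 0.44 (SE 0.0712, adjusted p = 0.000127), AT2G23120 at 0.34 (SE 0.0652, adjusted p = 0.00098) and AT2G23110 at 0.26 (SE 0.0772, adjusted p = 0.0287), the last of which lost its call without wild-type library 1 (0.22, adjusted p = 0.135) or 2 (0.27, adjusted p = 0.0785) or tcp14-labelled library 1 (0.19, adjusted p = 0.173). LEA14 was lower at -0.26 (SE 0.0697, adjusted p = 0.0152), lost without wild-type library 2 (-0.26, adjusted p = 0.053) or 3 (-0.24, adjusted p = 0.0642) or tcp14-labelled library 2 (-0.24, adjusted p = 0.0731) or 3 (-0.23, adjusted p = 0.0785). RAB18 and GEA6 were not called, at -0.22 (SE 0.127, adjusted p = 0.322) and -0.04 (SE 0.0989, adjusted p = 0.886).

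Set directly against tcp14-labelled seeds, mpk8 differed in 15 members dry (25.0% of all genes), 7 higher and 8 lower, against 12.7% and 12.3% of all genes, and in 17 members imbibed (21.0%), 9 higher and 8 lower, against 9.45% and 11.6%. With library totals the dry counts were 6 higher and 11 lower (6.35% and 18.0% of all genes), and of all called genes 50.7% were higher with TMM and 26% with library totals. The imbibed count was 10 without imbibed mpk8 library 1. Among members of at least 5 CPM called higher in mpk8, LTI30 differed most in both states, at 2.38 (SE 0.0645, adjusted p = 4.76e-18) dry and 2.19 (SE 0.114, adjusted p = 9.68e-13) imbibed. The low-count members COR15A and UNE15 were called lower in dry mpk8, COR15A with 0, 2 and 0 pairs in dry mpk8, against 31, 7 and 3 in dry tcp14-labelled libraries, and UNE15 at -1.39 (SE 0.469, adjusted p = 0.0327). The COR15A call is a description, since COR15A passed the filter only through dry wild-type and tcp14-labelled libraries. This call, at -4.11 (SE 1.13, adjusted p = 0.0102), was lost without dry tcp14-labelled library 1 (adjusted p = 0.137). The UNE15 call was lost in DESeq2 (adjusted p = 0.0598) and with single reads (adjusted p = 0.0511). It was also lost without dry mpk8 library 2 or 3 or dry tcp14-labelled library 1 or 3 (adjusted p = 0.0533 to 0.164). M17 was higher in mpk8 by 1.11 (SE 0.147) dry and 0.60 (SE 0.146) imbibed, and AT3G02480 by 0.93 (SE 0.0743) and 0.43 (SE 0.0774). AT4G36600 and AT3G22490 were higher in imbibed mpk8, at 0.41 (SE 0.0819) and 0.42 (SE 0.0659), and AT4G36600 also in dry mpk8, at 0.60 (SE 0.0762). XERO1 was lower in mpk8, at -0.75 (SE 0.076) dry and -0.31 (SE 0.076) imbibed, AT1G54410 at -1.03 (SE 0.242) and -1.39 (SE 0.176), and SAG21 at -0.47 (SE 0.116) and -0.60 (SE 0.0929). COR47 was lower in imbibed mpk8, at -1.86 (SE 0.293), and AT2G44060 too, at -0.61 (SE 0.118), and AT5G53270 was lower in dry mpk8, at -0.57 (SE 0.0706). ERD10 (-1.54, SE 0.487) and ERD14 (-0.94, SE 0.30) were lower in imbibed mpk8, but ERD10 lost its call without imbibed mpk8 library 1 or 3 or imbibed tcp14-labelled library 1 (adjusted p = 0.0635 to 0.15) and ERD14 without imbibed mpk8 library 1 or 3 or imbibed tcp14-labelled library 1 (adjusted p = 0.0511 to 0.18). RAB18 was higher in dry mpk8 at 0.42 (SE 0.127, adjusted p = 0.0174), a call lost without mpk8 library 2 (0.41, adjusted p = 0.0554) or tcp14-labelled library 2 (0.39, adjusted p = 0.0628) or 3 (0.39, adjusted p = 0.0702). At 24 h the lines did not differ by a call in RAB18 (0.06, SE 0.127, adjusted p = 0.795) or GEA6 (0.15, SE 0.0991, adjusted p = 0.306).

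The genes that switch LEA genes on and off, and other genes of desiccation tolerance, were counted in the same fit. Of 29 regulators 23 were tested, and in mpk8 12 were lower and 10 higher in imbibed than in dry seeds, against 38.7% and 44.4% of all genes, in tcp14-labelled seeds 12 and 9, against 39.3% and 43.8%, and in wild type 12 and 7, against 40.1% and 46.0%. The calls thus numbered 22, 21 and 19 of 23, where 83.1%, 83.1% and 86.1% of all genes were called, so the number called says little about regulators in particular. With library totals 6 were lower and 13 higher in mpk8, 5 and 13 in tcp14-labelled seeds and 5 and 15 in wild type, so the direction of several regulators rests on the scaling. The shares over all genes were then 19.7% and 67.8%, 21.1% and 65.5%, and 18.5% and 72.1%. ABI5, the bZIP factor that binds ABRE in Em promoters, stood at 194 CPM in imbibed and 1233 in dry mpk8, at 160.4 and 1186 in tcp14-labelled seeds and at 114 and 1114 in wild type. Its log2 imbibition change was -2.67 (SE 0.067), -2.89 (SE 0.0678) and -3.29 (SE 0.0692). DREB2A, a drought and heat factor that binds CRT/DRE, changed by -5.08 (SE 0.0878) in wild type, the bZIP factor BZO2H1 by -2.12 (SE 0.0694) and AFP1, which binds ABI5 and dampens it, by -2.06 (SE 0.107). Among those that rose in wild type were ABI4, an AP2 factor of abscisic acid and sugar signalling, by 4.75 (SE 0.168), HSL1, a B3 repressor of seed genes, by 0.83 (SE 0.0894), EEL, a bZIP factor that acts against ABI5 at EM1, by 0.68 (SE 0.0539) and AREB3 by 0.26 (SE 0.0891). In imbibed mpk8 15 regulators were higher and 3 lower than in wild type (33.8% and 30.8% of all genes), but 6 and 6 with library totals (12.3% and 49.9%). Higher in mpk8 with TMM were DREB2A (1.10, SE 0.0862), FUS3 (0.95, SE 0.105), ABF4 (0.89, SE 0.0907) and ABI5 (0.77, SE 0.065), and these stayed called with library totals. The 3 lower were ABI4 (-0.89, SE 0.0996) and, at under 5 CPM and named after their values were seen, ABF3 (-3.15, SE 0.387), an ABRE-binding bZIP factor, and OST1 (-1.82, SE 0.212), an abscisic acid signalling kinase. In imbibed tcp14-labelled seeds 12 were higher and 4 lower (27.3% and 28.0% of all genes), but 5 and 10 with library totals (7.83% and 54.2%). Higher there with TMM were DREB2A (0.79, SE 0.0885), ABF4 (0.61, SE 0.0913), ABI5 (0.50, SE 0.0652) and EEL (0.42, SE 0.0513), of which EEL was not called with library totals (0.09). The 4 lower were ABI4 (-0.65, SE 0.0992), SNRK2.2 (-0.27, SE 0.049), a kinase related to OST1, ABF3 (-1.84, SE 0.337) and OST1 (-1.73, SE 0.215). In dry seeds 2 regulators were called in mpk8 (2.62% of all genes), both higher, DREB2A (0.28, SE 0.0701) and SNRK2.2 (0.22, SE 0.049), and with library totals neither was called (0.21 and 0.15). In dry tcp14-labelled seeds 3 were higher and 3 lower (6.12% and 5.27% of all genes), and 5 and 2 with library totals (6.68% and 3.97%). With TMM ABF2 (0.73, SE 0.179), ABF4 (0.50, SE 0.10) and EEL (0.24, SE 0.0552) were higher. OST1 (-1.46, SE 0.381), SNRK2.2 (-0.64, SE 0.0504) and the B3 factor FUS3 (-0.37, SE 0.112) were lower. FUS3 was not called there with library totals (-0.34).

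All 9 other desiccation tolerance genes were tested, and 9 were lower in imbibed than in dry seeds in mpk8, 9 in tcp14-labelled seeds and 8 in wild type, against 38.7%, 39.3% and 40.1% of all genes. With library totals 8, 7 and 8 were lower, against 19.7%, 21.1% and 18.5% of all genes. In wild type DOG1, the dormancy regulator, changed by -5.34 (SE 0.115), GolS2, a galactinol synthase, by -4.59 (SE 0.0925), HSFA9, the heat stress factor of seeds, by -4.24 (SE 0.0771) and HSP17.6A, a small heat shock protein, by -4.03 (SE 0.118). In imbibed seeds 8 were higher and 1 lower in each line than in wild type, with TMM and with library totals, against 33.8% and 30.8% of all genes in mpk8 and 27.3% and 28.0% in tcp14-labelled seeds with TMM. The library-total shares of all genes were 12.3% and 49.9% in mpk8 and 7.83% and 54.2% in tcp14-labelled seeds. HSP17.6A stood at 918 CPM in imbibed mpk8 and 1066 in imbibed tcp14-labelled seeds, against 303 CPM in imbibed wild type, or 1.60 (SE 0.108) and 1.82 (SE 0.108). HSFA9 differed by 1.29 (SE 0.0744) and 1.19 (SE 0.0751), the vicilin-like PAP85 by 1.31 (SE 0.12) and 1.31 (SE 0.12), and GolS1 by 1.23 (SE 0.0785) and 1.19 (SE 0.0786). The single gene lower in both lines was SIP1, a raffinose synthase, at under 2 CPM in imbibed wild type. In dry seeds none of the 9 was called in mpk8, and GolS2 was higher in tcp14-labelled seeds (0.30, SE 0.0775).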

How the data were processed

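Polyadenylated RNA of seeds was sequenced as stranded read pairs, per the labels' protocols. The submitters' processing notes name TopHat2, Bowtie2 and the TAIR10 genome, with no versions or roles. The deposited values are raw counts of read pairs per transcript model, and per the file headers single reads and pairs with several equally good hits were left out, while pairs had to map properly to 1 model on the reversed strand. Libraries were grouped by the labels, 3 per group. The 53 members and the other lists were chosen with earlier results of these data known. From the counts, edgeR 4.0.16 (R 4.3.3) fitted quasi-likelihood models to the 6 group means of all 18 libraries, with TMM scaling and the low-count filter of edgeR, which kept 18061 of 33602 models. All adjusted p are Benjamini-Hochberg values over those models within 1 of 11 comparisons. A call is an adjusted p under 0.05 with no minimum fold. SE are the log2 fold change over the root of F.

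Named members are the most abundant of each family, the 4 called members that differ most in each direction of a comparison at 5 CPM or more, and those that go against most calls. Alternatives were DESeq2 size factors, library totals, DESeq2 1.42.0, no low-count filter, a replicate block, each library left out in turn and, added after seeing the data, single reads. On simulated counts the fit was tested before use. Those counts held few changes, as many up as down, in imbibed mpk8 only, so they could not test the scaling. No replicates agreed within sampling noise (chi-square per degree of freedom 1.58 to 18.2). Replicates of imbibed tcp14-labelled seeds agreed least, at 9.42, 9.71 and 18.2, and pairs within the other groups stood at 1.58 to 6.49. Depth was 12170793 to 21233207 pairs per library, so members at a few pairs have wide counting error. Upstream sequences came from RefSeq TAIR10.1, in which 97.7% of the loci in the files were found.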

Additional observations from a re-analysis of the deposited data

Results flagged for a closer look

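The effect of imbibition differed between the lines and wild type, by a test of the difference itself. For mpk8 the interaction with wild type was called for 42 of 45 members, against 39.0% of all genes, and for tcp14-labelled seeds for 37 of 45, against 33.2%, both in edgeR's quasi-likelihood test. The 42 include AT2G03850 and AT4G38410, and the 37 include AT4G38410, calls that are descriptions because of the filter. With library totals 39 and 33 members were called, against 34.4% and 40.9% of all genes. AT2G44060 stands out because its called changes had opposite signs in mpk8 and in wild type. Its interaction was -1.98 on the log2 scale (SE 0.18, adjusted p = 3.5e-08), with imbibed below dry in mpk8 and above dry in wild type, though the mpk8 change has the opposite sign with library totals (0.51). Seed reserve, endosperm, seed coat and green leaf marker sums differed between the same groups, and their part was not tested.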

How the results depend on the processing

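Of the 125 results that the naming rule takes from the members, recomputed 1626 times in all, 1576 values kept their direction and their side of the threshold, 49 (on 13 results) kept the direction and lost the call, and 1 turned. The one that turned is AT2G46140 in imbibed against dry wild type, 0.91 with library totals. Outside that rule, library totals also turned called imbibition changes of 6 members in mpk8 (AT2G44060 0.51, AT4G39130 0.45, ECP63 0.43, AT2G23120 0.27, EM1 0.11 and AT2G46140 0.09), of 3 in tcp14-labelled seeds (M17 0.31, AT2G46140 0.29 and ECP63 0.09), and the tcp14-labelled interactions of LEA7 (-0.08) and XERO1 (-0.05). Of 144 recomputed counts of called members, 139 stayed within 1.5 times. For dry mpk8 against dry wild type the count of 5 became 9 with no low-count filter and lay between 2 and 5 with a library left out. For imbibed mpk8 against imbibed tcp14-labelled seeds the count of 17 lay between 10 and 22 with a library left out. The fits with no low-count filter test more members, 50 in the dry mpk8 comparison, and for the others the cause was not tested. Same-numbered replicates were not taken as pairs, since in no comparison were all 3 correlations of deviations from the group mean over 0.1 (range -0.24 to 0.38). In imbibed against dry tcp14-labelled seeds (0.05 to 0.16) and in dry mpk8 against dry tcp14-labelled seeds (0.06 to 0.08) all 6 libraries correlated best with their own number, a hint from the data and not from the design. With a replicate block the calls were 40, 43 and 44 for imbibed against dry mpk8, tcp14-labelled and wild-type seeds, 5 and 12 for dry mpk8 and dry tcp14-labelled against wild type, 16 between the dry lines, 41 and 41 for the imbibed lines against wild type, 17 between them, and 42 and 36 for the interactions. The 8 untested members, 3 of them without a pair in any library, and AT4G38410, AT2G03850, COR15A and UNE15 rest on few pairs per library, so their counting error is wide.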
